A study of Mus musculus with 6 samples.

Results

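Imprinted genes were followed in mouse pancreatic beta-cells: the maternally expressed noncoding RNAs *Meg3*, *Rian* and *Mirg*, the maternally expressed *Grb10*, and the paternally expressed *Dlk1*, *Peg3*, *Plagl1* and *Nnat*. They were taken by gene symbol from a table of 13535 genes, in which all 8 of the 8 listed genes were found. Sorted beta-cells formed clusters over 5 days of culture, either together with alpha- and delta-cells (pseudo-islets) or on their own (pseudo-beta), and were sorted again for RNA sequencing. Each group had 3 libraries, and experiments 35, 36 and 37 each gave 1 library of either kind. The comparison asks how beta-cell gene expression differs with and without the other endocrine cells. All cells came from wild-type (WT) C57BL/6JRj male mice aged 12 weeks, with no transgene, drug or deletion in either group, and both groups went through dispersion, sorting and reaggregation. The values are the authors' normalized counts, which are estimated read counts scaled between libraries.

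An imprinted gene is transcribed mainly from the allele inherited from a given parent, according to DNA methylation laid down in the germ line. Imprinted genes often lie in clusters, in which a long noncoding RNA and neighbouring protein-coding genes are read from opposite parental alleles. In beta-cells they are known for links to growth and hormone handling: the *Meg3* locus for its loss of expression in human type 2 diabetes, *PLAGL1* for transient neonatal diabetes, and *Grb10* for restraining insulin and IGF1 receptor signalling. Parental alleles of an inbred strain have the same sequence, so only the total level of each gene was measured here, not its imprinting.

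The sequences at the start of the 2 most abundant of these genes are shown first, because both hold the full cAMP response element TGACGTCA, to which CREB family factors can bind. Each sequence is a RefSeq promoter window (GRCm38.p6) of 300 bases, from 250 before to 50 after the start of the gene, read 5′ to 3′ on the gene's strand. Capitals mark the motifs found: TGACGTCA and, in *Meg3*, GCGGCA, the reverse complement of the hexamer TGCCGC that the imprint-keeping factor ZFP57 recognises when methylated.
Meg3, chr12:109540746-109541045, plus strand: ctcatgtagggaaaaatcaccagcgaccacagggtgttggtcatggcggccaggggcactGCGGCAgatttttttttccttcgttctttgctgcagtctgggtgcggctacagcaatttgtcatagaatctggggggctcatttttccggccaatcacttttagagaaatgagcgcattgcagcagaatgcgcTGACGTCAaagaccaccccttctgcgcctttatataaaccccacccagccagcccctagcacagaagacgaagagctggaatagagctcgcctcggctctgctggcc
Peg3, chr7:6730370-6730669, minus strand: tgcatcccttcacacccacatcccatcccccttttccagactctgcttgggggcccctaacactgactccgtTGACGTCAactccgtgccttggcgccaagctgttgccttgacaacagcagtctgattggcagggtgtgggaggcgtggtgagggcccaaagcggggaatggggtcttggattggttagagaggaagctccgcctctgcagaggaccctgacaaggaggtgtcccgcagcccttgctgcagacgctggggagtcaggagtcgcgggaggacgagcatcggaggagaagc
The full element starts at position -57 in *Meg3* and -178 in *Peg3*, counted from the gene start. Searched on both strands, TGACGTCA is in 1.79% of the 32851 promoter windows of this length, its shorter part TGACG (which overlaps it) in 20.8%, TGCCGC in 11.6% and the YY1 core GCCATNTT in 6.05%. Among the other members, *Nnat*, *Plagl1* and the first of the *Grb10* windows hold TGCCGC or its reverse complement, the *Dlk1* window and the second *Grb10* window hold TGACG, and the *Rian*, *Mirg* and second *Meg3* windows hold none of the 4. GCCATNTT was in no member's window. The *Mirg* window (chr12:109734731-109735030), the second *Meg3* window and those of *Plagl1* and *Grb10* lie wholly inside the annotated gene spans given below. They do not show the letters at the annotated starts of these genes. A match is a description of letters, not of a bound site.

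*Meg3*, *Rian* and *Mirg* also serve as host transcripts for small RNAs. RefSeq places 3 mature miRNAs inside the annotated span of *Meg3*, 6 inside *Rian* and 26 inside *Mirg*. Examples are given with the seed, bases 2 to 8, in capitals, because the host transcripts are what was measured here and the mature miRNAs were not.
mmu-miR-770-5p (in Meg3): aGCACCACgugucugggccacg
mmu-miR-370-3p (in Rian): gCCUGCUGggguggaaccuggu
mmu-miR-134-5p (in Mirg): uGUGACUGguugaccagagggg
mmu-miR-410-3p (in Mirg): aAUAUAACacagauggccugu
mmu-miR-453 (in Mirg): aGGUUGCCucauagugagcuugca
mmu-miR-496a-5p (in Mirg): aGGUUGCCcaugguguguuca
The last of these, miR-453 and miR-496a-5p, are the only pair among the hosted mature miRNAs that share a seed.

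The libraries summed to between 17994346 and 19635287 normalized counts, and the 10 most abundant genes took 40.9% to 45.1% of a library. The number of reads behind each value is not known. All 10 beta-cell markers looked for were in the table, and their summed level was 6961550 to 8337440 normalized counts. Of alpha-cell markers 5 of 10 were in the table and summed to 7567 to 11521 in pseudo-islets and 5026 to 6191 in pseudo-beta, with *Gcg* (glucagon) at 941 to 2094 and 0 to 36.1. Of delta-cell markers 2 of 7 summed to 369 to 532 and 249.5 to 273, with *Sst* (somatostatin) at 146 to 210.2 and 0 to 4.74, and of PP-cell markers 3 of 4 summed to 876 to 5757 and 508 to 2687. Of acinar and duct markers 3 of 8 (*Krt7*, *Spp1* and *Krt19*) were in the table and summed to 4391 to 6891 over all libraries. The others looked for (*Prss2*, *Cela1*, *Cpa1*, *Amy2a2* and *Pnlip*) were not in the table. The 1 of 6 immune markers in the table was at 3.74 to 18.6, and none of the 6 stromal or 6 endothelial markers was in the table. The summed alpha-, delta- and PP-cell markers were higher in pseudo-islets in each experiment. Gene by gene, 3 of the 5 alpha-cell markers were higher in pseudo-islets and 2 lower, 1 of the 2 delta-cell markers was higher and 1 lower, and all 3 PP-cell markers were higher. With the block, 2, 1 and 2 of them were called, where 0.539% of all genes were. *Sst* reached 10 normalized counts only in pseudo-islets. It thus meets the level of 10 in 3 libraries, met by all genes of the table, only through the group where it was higher. The hormone RNA of alpha-, delta- and PP-cells moves with the group, and its part in the differences given here was not tested.

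*Peg3* and *Meg3* were among the abundant transcripts of these beta-cells, whereas *Dlk1* and *Plagl1* were close to the lowest. On the scale of mean normalized counts per kb of annotated exon over the 6 libraries, *Peg3* was at 1402, higher than 96.4% of the 13522 genes with an annotated length, and *Meg3* at 708, higher than 92.6%. *Nnat* followed at 215, *Rian* at 105, *Grb10* at 39.9, *Mirg* at 28.4, *Dlk1* at 7.42 and *Plagl1* at 4.96, at percentiles from 78.2 for *Nnat* down to 6.55 for *Plagl1*. By single libraries the order per kb was clear from *Peg3* down to *Rian*, with no overlap between neighbours. It rests on the annotated exon lengths, which were 1829 bases for *Nnat* and 18234 for *Rian*. In normalized counts not divided by length, *Rian* (1593 to 2150) lay above *Nnat* (244 to 553) in every library. *Grb10* (26.8 to 57.7 per kb) and *Mirg* (19.6 to 34.5) overlapped, as did *Dlk1* (2.60 to 15.5) and *Plagl1* (2.03 to 8.80).

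None of the 8 genes passed the test for a difference between pseudo-islets and pseudo-beta, although the mean log2 level of 7 of 8 was below that of pseudo-beta. With limma on log2(normalized count + 1) and adjusted p under 0.05, 0 of 8 were called without the experiment as a block, where 0.0591% of all genes were called, and 0 of 8 with it, where 0.539% were. At an unadjusted p under 0.05 there was 1 of 8 without the block (*Meg3*; 5.4% of all genes) and 2 of 8 with it (*Meg3* and *Plagl1*; 11.9% of all genes). The median log2 fold change, pseudo-islets over pseudo-beta, was -0.26 over the 8 genes and 0.01 over all genes, of which 48.6% lay below pseudo-beta in the same way. No member had groups free of overlap, in either direction, while 5.13% of all genes were separated with pseudo-islets lower and 5.63% with pseudo-islets higher. *Plagl1* and *Grb10* were lower in pseudo-islets in 3 of 3 experiments, a pattern shown by 15% of all genes. By parental allele, the 4 maternally expressed members had a median of -0.37 with 4 of 4 negative, and the 4 paternally expressed members a median of -0.13 with 3 of 4 negative. That difference was not tested. *Meg3*, *Rian* and *Mirg* lie in 1 domain, so they do not count as independent genes. Among the further imprinted genes described below, 10 of the 21 maternally expressed were higher in pseudo-islets and 11 lower (median -0.05). Of the 17 paternally expressed, 9 were higher and 8 lower (median 0.04). The samples are bulk RNA, so fewer cells expressing a gene and less RNA per cell cannot be told apart.

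**Figure D1:**
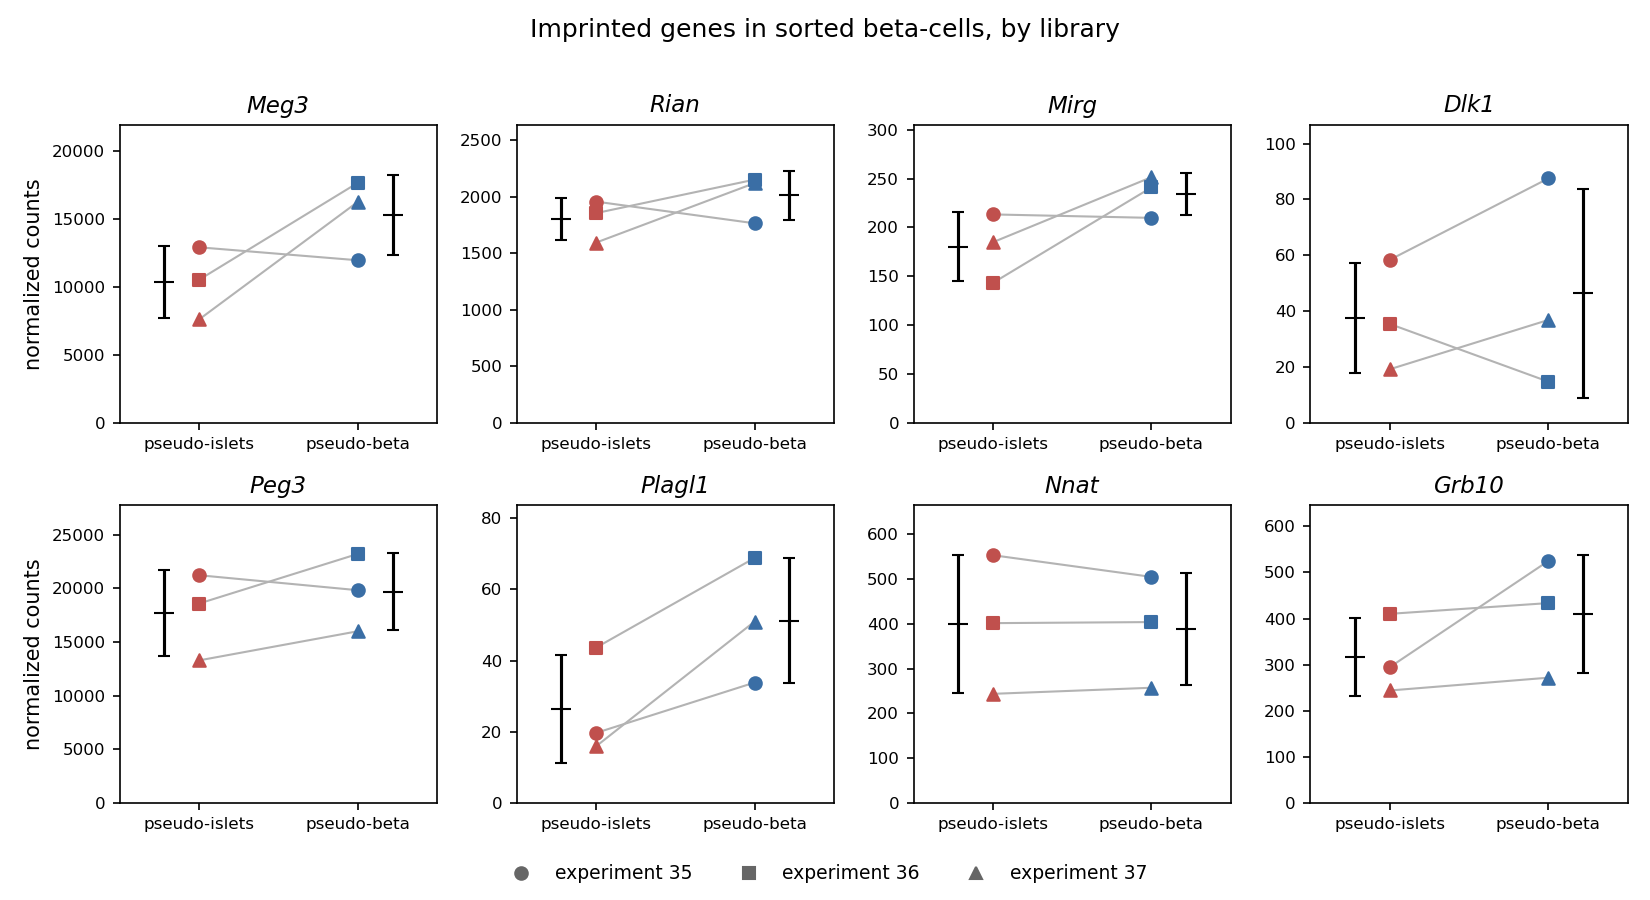
Normalized counts (linear axis from 0) of the 8 imprinted genes in each library, red for pseudo-islets and blue for pseudo-beta, with marker shape for the experiment, a line joining the 2 libraries of an experiment, and black bars for the mean ± SD (n = 3). In every panel the 2 groups overlap.

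*Meg3*, a long noncoding RNA with growth-restraining activity at chr12:109541001-109571726 (GRCm38, plus strand), had the smallest p of the 8. Its level, given here and for the next genes in the order of experiments 35, 36 and 37, was 12898.5, 10512 and 7593 normalized counts (pseudo-islets) against 11946, 17635 and 16232 (pseudo-beta). The pseudo-islets library of experiment 35 lay above the pseudo-beta library of the same experiment, so the groups overlapped, while in experiments 36 and 37 pseudo-islets were lower. The means were 10335 ± 2657 and 15271 ± 2963 (SD, n = 3 each), a log2 fold change of -0.58 (SE 0.20, 95% interval -1.03 to -0.13). The unadjusted p was 0.0168 and the adjusted p 0.862 (limma), or 0.200 with the block. When experiment 35 was left out of the fit with the block, the log2 fold change was -0.92 and the adjusted p 0.00622. Without experiment 36 or 37 these were -0.49 and -0.32, with adjusted p of 0.304 and 0.574, so the call depends on which experiments enter. Without the block, leaving out pseudo-islets of experiment 37 gave -0.37.

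*Rian*, which carries box C/D small nucleolar RNAs in its introns (chr12:109603940-109661716), varied least. It was at 1956, 1854 and 1593 normalized counts (pseudo-islets) against 1764, 2150.4 and 2119 (pseudo-beta). The order within experiments was that of *Meg3*: higher in pseudo-islets of experiment 35 and lower in the others. Its log2 fold change was -0.16 (SE 0.15, interval -0.48 to 0.17; adjusted p 0.998), or -0.07 without pseudo-islets of experiment 37 and -0.25 without pseudo-beta of experiment 35.

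*Mirg*, the host of the miRNA cluster (chr12:109729764-109749460), was at 213, 143 and 185 normalized counts (pseudo-islets) against 209.9, 241 and 252 (pseudo-beta). The 2 libraries of experiment 35 were nearly equal, and pseudo-islets were lower in the others. Its log2 fold change was -0.39 (SE 0.24, interval -0.91 to 0.14; adjusted p 0.973), or -0.23 without pseudo-islets of experiment 36.

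The annotation lists 118 genes from *Dlk1* to *Dio3* on chromosome 12, of which 67 are miRNAs and 23 snoRNAs, and 6 of the 118 were in the table. Besides the 4 members there these were the noncoding transcripts *Gm37899* (54.6 normalized counts per kb) and *B830012L14Rik* (31.1 per kb), both between *Rian* and *Mirg* on the same strand. *Gm37899* was at 451, 375 and 278 normalized counts (pseudo-islets) against 350.5, 617 and 785 (pseudo-beta). *B830012L14Rik* was at 207, 128 and 82.5, and 101, 116 and 207. Neither passed the test (log2 fold changes -0.62, SE 0.30, and -0.05, SE 0.39; adjusted p 0.932 and 0.998). Annotated on the plus strand of 1 domain and known to be maternally expressed as a group, these transcripts are not independent measurements.

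The paired log2 difference, pseudo-islets minus pseudo-beta, in experiments 35, 36 and 37 was 0.11, -0.75 and -1.10 for *Meg3*, and 0.15, -0.21 and -0.41 for *Rian*. For *Mirg* it was 0.02, -0.75 and -0.44, for *Gm37899* 0.36, -0.72 and -1.49, and for *B830012L14Rik* 1.03, 0.15 and -1.32. All 5 noncoding transcripts of the domain were thus above 0 in experiment 35 and below 0 in experiment 37. Long noncoding genes as a class moved with the experiments too: over the 1373 in the table the median paired log2 difference was -0.01, -0.11 and -0.39, beside -0.004, 0.004 and 0.06 over 11586 protein-coding genes. The nuclear RNA *Malat1* stood at -0.11, -0.06 and -1.38, with 117134 normalized counts in pseudo-beta of experiment 37 and 45048 to 53580 in the other libraries. The nuclear RNA *Neat1* stood at 0.86, -0.34 and -0.50, and the noncoding *Tug1* at 0.04, 0.00055 and -0.15. Without pseudo-beta of experiment 37 the log2 fold change of *Meg3* was -0.52, and the part of the noncoding class in the *Meg3* difference was not tested. The noncoding class, *Malat1*, *Neat1* and *Tug1* were examined after the values of *Meg3* had been seen.

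**Figure D2:**
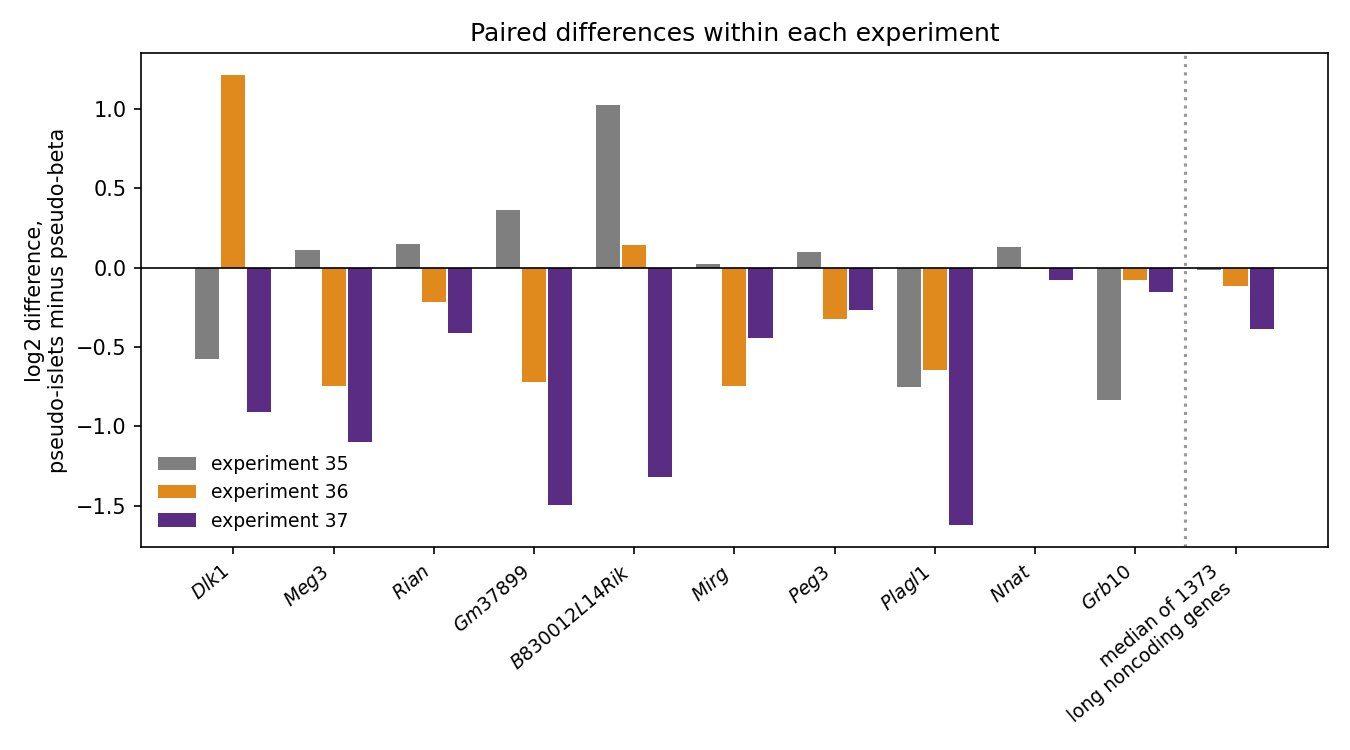
Paired log2 difference (pseudo-islets minus pseudo-beta, on log2(normalized count + 1)) of each imprinted gene and of 2 further noncoding transcripts of the Dlk1-Dio3 domain, 1 bar per experiment, with the median of 1373 long noncoding genes at the right. *Meg3*, *Rian*, *Gm37899*, *B830012L14Rik* and *Mirg* are all above 0 in experiment 35 and below 0 in experiment 37.

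The other noncoding transcripts of the domain were also set against *Meg3* in the same library. *Rian* was at 15.2%, 17.6% and 20.98% of the *Meg3* level (pseudo-islets) against 14.8%, 12.2% and 13.1% (pseudo-beta), and each pseudo-islets library lay above each pseudo-beta library. The difference of the log2 ratios was 0.42, with an exact two-sided permutation p of 0.1, the smallest that 3 against 3 can give. A ratio to *Meg3* rises where *Meg3* is lower, so this largely restates the *Meg3* values and is not a result about *Rian* alone. For *Mirg* (1.36% to 2.43% against 1.37% to 1.76%), *Gm37899* (3.50% to 3.66% against 2.93% to 4.84%) and *B830012L14Rik* (1.09% to 1.60% against 0.656% to 1.28%) the groups overlapped, with exact permutation p of 0.7, 0.9 and 0.3. Over these 4 ratios no adjusted value could pass 0.05.

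*Dlk1*, the paternally expressed gene of the same domain, encodes a transmembrane protein related to Notch ligands (chr12:109452823-109463336). It was low and variable, at 58.3, 35.4 and 19.1 normalized counts (pseudo-islets) against 87.5, 14.7 and 36.8 (pseudo-beta). Its pseudo-beta libraries span the whole range of the pseudo-islets. The log2 fold change was -0.09 (SE 0.65, interval -1.53 to 1.35; adjusted p 0.998), and its sign turned when pseudo-islets of experiment 37 (0.31) or pseudo-beta of experiment 35 (0.53) was left out. Unlike the noncoding transcripts, *Dlk1* was higher in pseudo-islets only in experiment 36, with paired log2 differences of -0.58, 1.21 and -0.91.

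*Plagl1* encodes a zinc-finger transcription factor (chr10:13060504-13131694, plus strand). It was at 19.7, 43.6 and 15.9 normalized counts (pseudo-islets) against 33.8, 68.8 and 51.0 (pseudo-beta). The paired log2 difference was negative in each experiment (-0.75, -0.65 and -1.62), but the highest pseudo-islets library lay above the lowest pseudo-beta library. This was the greatest fold change of the 8, at -1.01 (SE 0.50, interval -2.11 to 0.10; p 0.0700, adjusted p 0.946). With the block the interval was -1.96 to -0.05, the unadjusted p 0.0411 and the adjusted p 0.399. Its values lie near the low end of the table, and with a pseudocount of 10 the log2 fold change was -0.78. *Phactr2*, a neighbour listed as maternally expressed, was at 89.9, 123 and 89.3 against 138, 150.1 and 146, without overlap. It did not pass the test either (log2 fold change -0.53, SE 0.26, adjusted p 0.946).

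*Grb10*, an adaptor that binds the insulin and IGF1 receptors (chr11:11930508-12038683, minus strand), was at 294, 410.1 and 244 normalized counts (pseudo-islets) against 525, 433 and 272 (pseudo-beta). Pseudo-islets were lower in 3 of 3 experiments, mainly in experiment 35, with paired log2 differences of -0.83, -0.08 and -0.16. Its log2 fold change was -0.36 (SE 0.28, interval -0.98 to 0.27; adjusted p 0.992). It was -0.15 without pseudo-beta of experiment 35, -0.19 without pseudo-islets of 37, -0.56 without pseudo-islets of 36 and -0.63 without pseudo-beta of 37.

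*Peg3* encodes a large zinc-finger protein read from the paternal allele (chr7:6703892-6730431, minus strand). It was at 21209, 18573 and 13276.5 normalized counts (pseudo-islets) against 19816, 23189 and 15989 (pseudo-beta). Experiment 37 was lowest in both groups, and the groups overlapped. The log2 fold change was -0.16 (SE 0.19, interval -0.58 to 0.25; adjusted p 0.998), and leaving out 1 library at a time gave -0.31 (without pseudo-islets of experiment 35) to 0.03 (without pseudo-islets of experiment 37). Its neighbours *Usp29*, also paternally expressed, and *Zim1*, maternally expressed, had log2 fold changes of -0.12 (SE 0.20) and -0.53 (SE 0.40), neither called.

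*Nnat* encodes neuronatin, a small membrane protein of the endoplasmic reticulum that aids insulin handling in beta-cells (chr2:157560078-157562522, plus strand). It was at 553, 401 and 244 normalized counts (pseudo-islets) against 505, 404 and 257 (pseudo-beta). The 2 libraries of an experiment were nearly the same, within 1.10, 1.01 and 1.06-fold of each other, while experiments differed by up to 2.11-fold. The log2 fold change was 0.02 (SE 0.33, interval -0.71 to 0.74; adjusted p 0.999), or with the block, which removes the spread between experiments, an interval of -0.33 to 0.36. The sign turned under both rescalings of the libraries, to -0.044 and -0.058.

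*Nnat* and *Peg3* passed the test for a difference between experiments. The moderated F test of limma for the experiment, with the group in the model, called 2 of the 8 genes at adjusted p under 0.05, where it called 6.32% of all genes: *Peg3* (adjusted p 0.0190; mean levels of 20512, 20881 and 14633 normalized counts in experiments 35, 36 and 37) and *Nnat* (adjusted p 0.0198; 529, 403 and 250.3). Both calls were lost without pseudo-islets of experiment 37 (adjusted p 0.180 and 0.156), without pseudo-beta of experiment 37 (0.106 and 0.158), or when every gene shared 1 prior variance (0.376 and 0.326). Over all genes the calls of this test fell as well, from 855 in the main test to 145, 72 and 0 in these settings. Only *Peg3* was called without pseudo-islets of experiment 35 (0.0244), where *Nnat* had 0.0842. Without pseudo-beta of experiment 35, *Nnat* had 0.0654, while *Peg3* (0.00915) and *Meg3* (0.0496) were called. *Grb10* had p 0.0217 (adjusted p 0.137) and *Dlk1* p 0.0471 (adjusted p 0.206), and the adjusted p of *Meg3* was 0.610. What differed between the experiments is not given in the labels. The same test called 2 of 3 PP-cell markers, 1 of 5 alpha-cell, 0 of 2 delta-cell, 4 of 10 beta-cell and 1 of 3 acinar and duct markers. The PP-cell hormone RNA *Ppy* was at 4172, 383 and 1790.5 normalized counts (pseudo-islets) and 1650, 219 and 731 (pseudo-beta). Its part in the calls of *Peg3* and *Nnat* was not tested.

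*Nnat* lies inside *Blcap* on the opposite strand, and the counting's use of strand is not stated, so reads of the overlapping parts could be shared. *Blcap*, maternally expressed in brain, followed the same order, at 1826, 1507 and 1022 normalized counts (pseudo-islets) against 1533, 1487.5 and 1023 (pseudo-beta) (experiment adjusted p 0.0197). The experiments were thus ordered alike for the 2 genes, and whether shared reads play a part was not tested. *Meg3* and *Plagl1* are also overlapped on the opposite strand, by *Gm26906* and *Gm27741*, and *Mirg* by *Gm24321*, none of them in the table.

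**Figure D3:**
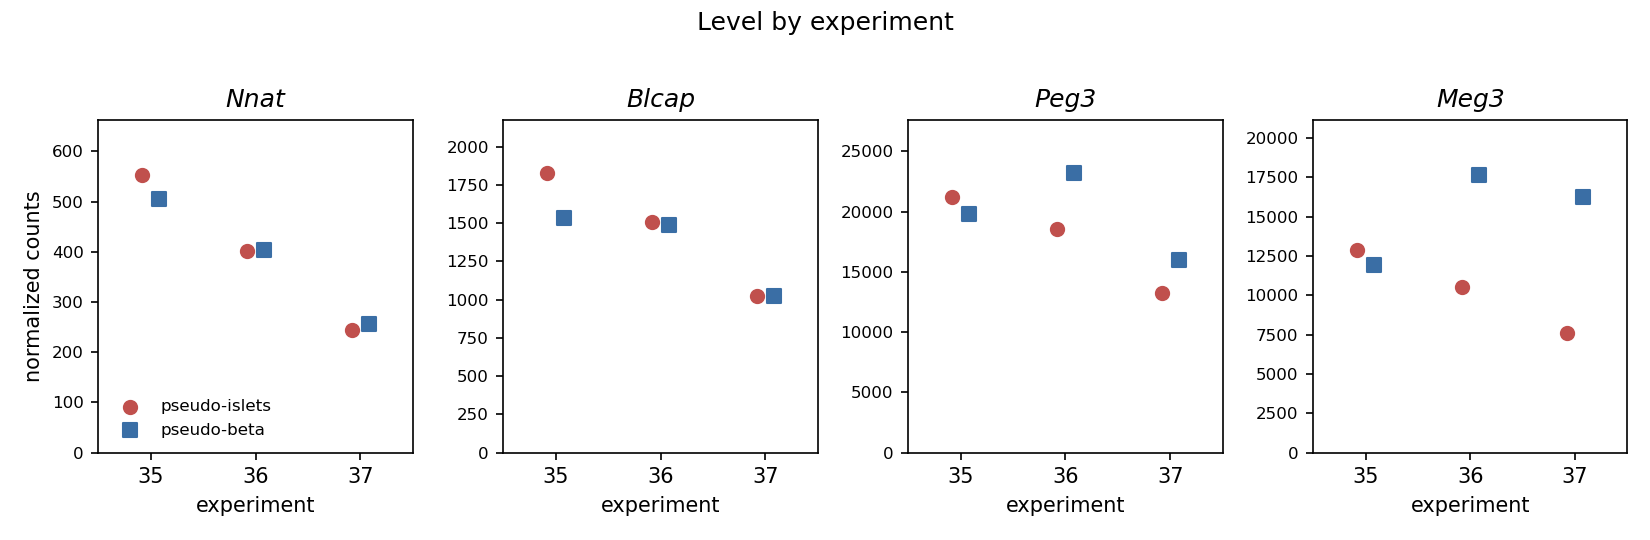
Normalized counts (linear axis from 0) of *Nnat*, *Blcap*, *Peg3* and *Meg3* by experiment, with red circles for pseudo-islets and blue squares for pseudo-beta. The *Nnat* libraries of an experiment lie within 1.10-fold of each other, while those of *Meg3* lie up to 2.14-fold apart.

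By the root mean square difference of centred log2 profiles over the 6 libraries, searched among 10577 genes with a mean of at least 50, the genes nearest to *Meg3* were *Cplane1* (0.09), *Kansl3* (0.09) and *Erc1* (0.12), against a spread of 0.40 of *Meg3* around its own mean. Nearest to *Rian* were *Atxn1*, *Tarbp2* and *Arnt*, to *Mirg* *Nefh*, *Cxxc4* and *Lin7b*, and to *Dlk1* *Npy*, *Arhgap29* and *Sdr42e1*. For *Peg3* they were *Rnf8*, *Fbxo27* and *Phldb2*, for *Plagl1* *Gm48582*, *Ccdc62* and *5830444F18Rik*, for *Nnat* *Mgme1*, *Pafah2* and *Suv39h1*, and for *Grb10* *Kank1*, *Adgrb3* and *Zfp449*. Among the members themselves, *Rian* was the nearest to *Meg3* (0.26), to *Mirg* (0.22) and to *Peg3* (0.21), where the own spreads of *Mirg*, *Peg3* and *Rian* were 0.27, 0.27 and 0.15. A flat profile such as that of *Rian* tends to lie near others by this measure. *Rian* itself was farther from its nearest member, *Peg3* (0.21), than its own spread of 0.15. With 6 libraries and so many candidates, close profiles are a description only.

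Further genes, 68 in number, were listed as imprinted in mouse, and whether they are imprinted in beta-cells was not measured. Of these, 38 were in the table, and they were split evenly: 19 higher and 19 lower in pseudo-islets. Their median log2 fold change was 0.01. When the libraries were rescaled without the 10 most abundant genes or to equal totals, 14 were higher and 24 lower, with medians of -0.05 and -0.07. None of the 38 passed the test without the block (0.0591% of all genes), and 1 of 38 passed with it (0.539%). At an unadjusted p under 0.05 there were 6 without the block (5.4% of all genes) and 8 with it (11.9%). That gene was *Inpp5f*, a phosphoinositide phosphatase, at 2470, 2724 and 3209 normalized counts (pseudo-islets) against 1243, 1422 and 2026.5 (pseudo-beta). Pseudo-islets were higher in each experiment, and the groups did not overlap. The log2 fold change was 0.86 (SE 0.19), with an adjusted p of 0.390 without the block and 0.00267 with it. Imprinting of *Inpp5f* is known for a shorter brain transcript that begins inside the gene, and the gene-level value does not separate it from the main transcript.

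Per kb, the most abundant of the 38 were *Snrpn*, a spliceosome protein, at 1907 normalized counts, *Tssc4* at 1217, the amino acid transporter *Slc38a4* at 1196, *Nap1l4* at 750.5 and the creatine synthesis enzyme *Gatm* at 704. Their log2 fold changes were 0.04, -0.41, 0.18, 0.04 and -0.13. Only *Snrpn* of the 38 had more normalized counts per kb than *Peg3*. After *Inpp5f*, the highest log2 fold changes among genes with a mean of at least 50 were those of *Nap1l5* (0.45, SE 0.38) and *Trappc9* (0.30, SE 0.21). The lowest were those of *Asb4* (-0.97, SE 0.40) and of the silencing noncoding RNAs *Airn* (-0.78, SE 0.32) and *Kcnq1ot1* (-0.67, SE 0.25), with adjusted p of 0.901, 0.895 and 0.872. *Kcnq1ot1*, like *Meg3*, had paired log2 differences that ran from 0.05 in experiment 35 to -0.50 and -1.55 in experiments 36 and 37, whereas *Airn* was lower in each (-0.93, -0.78 and -0.63). Of the 38 genes, 5 had pseudo-islets below pseudo-beta without overlap (*Tssc4*, *Rasgrf1*, *Zrsr1*, *Airn* and *Phactr2*; 5.13% of all genes) and 1 above (5.63% of all genes).

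**Figure D4:**
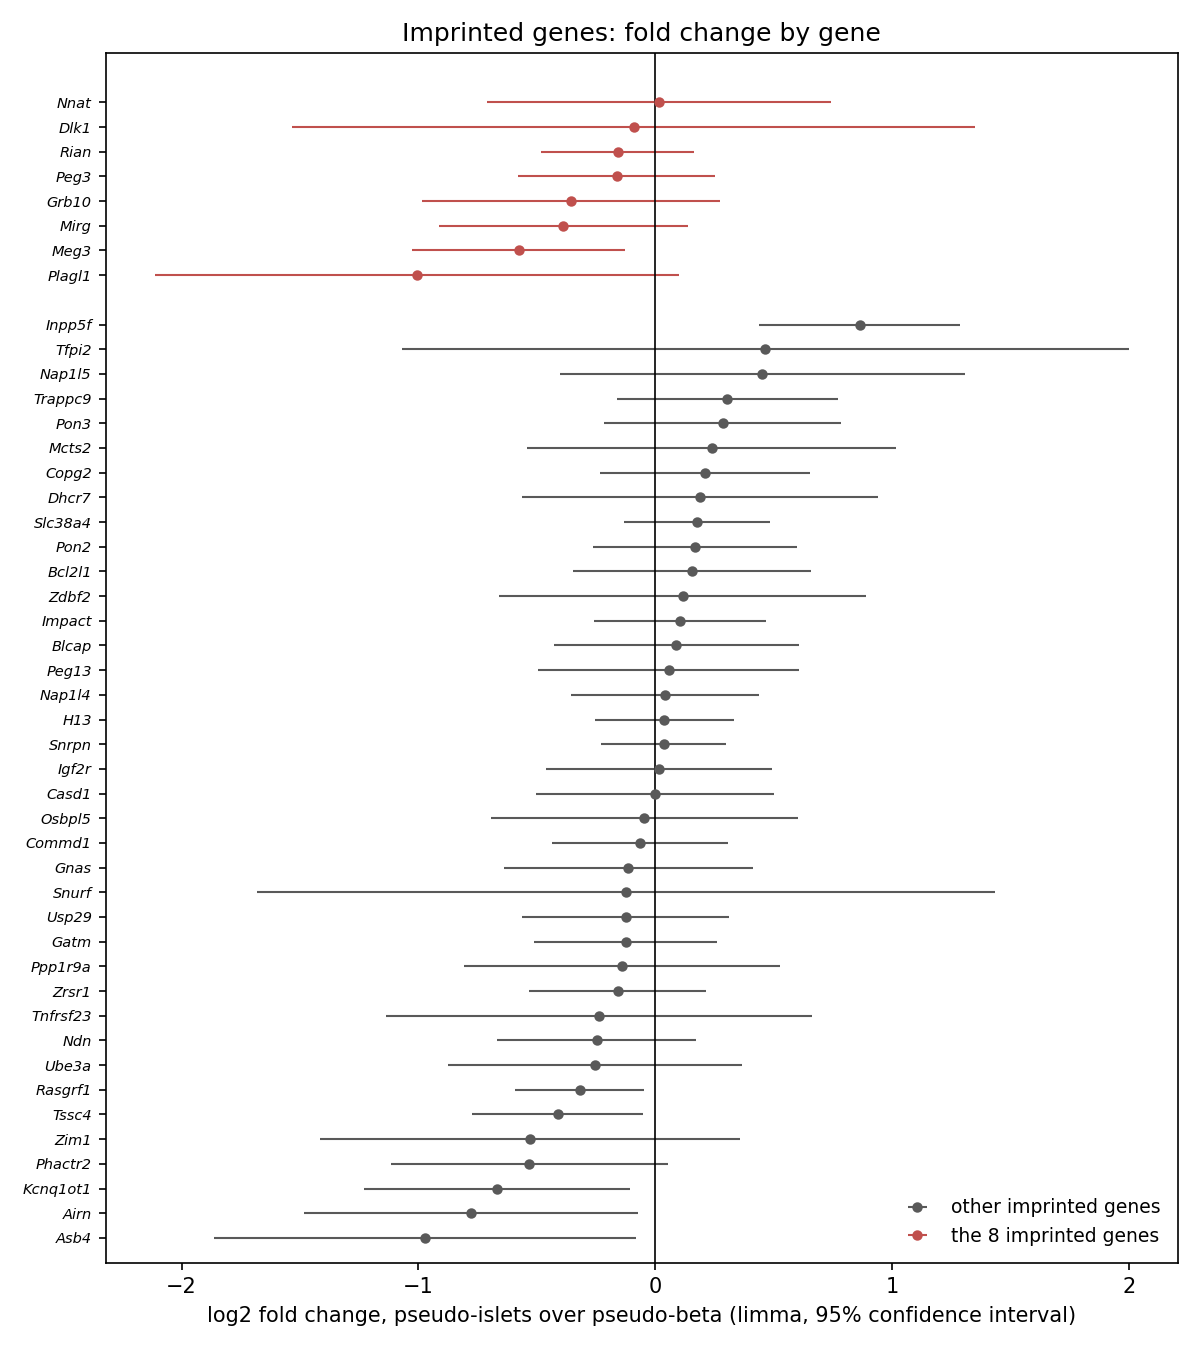
Log2 fold change (pseudo-islets over pseudo-beta) with its 95% interval from limma without the block, for the 8 imprinted genes in red and 38 further imprinted genes in grey. The interval of *Meg3* (-1.03 to -0.13) is the only 1 of the 8 that leaves out 0, and *Inpp5f* has the highest value of the others. With the block, which is not drawn, the interval of *Plagl1* (-1.96 to -0.05) leaves out 0 as well.

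Genes that keep methylation or heterochromatin at imprinted regions were expressed without a called difference. Of 15 listed, 12 were in the table, 0 of 12 were called with or without the block, and at an unadjusted p under 0.05 there were 0 without the block and 2 with it, where 5.4% and 11.9% of all genes were. Of these 12, the log2 fold change was negative for 11 and positive for 1 (48.6% of all genes were negative), and its median was -0.21. The most abundant per kb were *Zfp445*, a zinc-finger protein that binds imprinting control regions (125 normalized counts per kb), its corepressor *Trim28* (117), the insulator protein *Ctcf* (114), *Morc3* (104) and *Arid4a* (94.3). Their log2 fold changes were -0.30 (SE 0.25), -0.15 (SE 0.26), -0.04 (SE 0.20), 0.07 (SE 0.24) and -0.23 (SE 0.18). Among those with a mean of at least 50, *Smchd1* (-0.24) and the maintenance methyltransferase *Dnmt1* (-0.23) were the next lowest after *Zfp445*, and *Setdb1* stood at -0.05. The lowest of the 12 was *Hells* (-0.64), a chromatin remodeller whose mean lay under 50.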

How the data were processed

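The authors made libraries from 5 ng of RNA, removed ribosomal sequences and read pairs of 75 bases. Per the submitters' processing notes, STAR 2.7.6a, RSEM 1.3.1, R 3.6.3, DESeq2 1.26.0 and GRCm38 were used by the authors. The deposited signal is normalized counts per gene and library. Other deposited columns hold the authors' mean signal, log2 fold change, test statistic (a score) and p-value, and were not used. The annotation release, low-count filter and use of strand in counting are not given in the sources used here.

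Because the values are normalized, limma 3.58.1 (R 4.3.3) was applied to log2(value + 1) with a prior variance trend and Benjamini-Hochberg adjustment over all 13535 genes. Values of all 13535 genes reach 10 in at least 3 libraries. Standard errors set the precision, since read depth is unknown. The study's methods define n as independent biological samples, without saying for these libraries which animals were used, and p-values measure the spread between libraries. Deviations from group means correlated at 0.119, 0.121 and 0.325 between libraries of the same experiment, all above 0.1, so the experiment numbers were taken as pairs. Between libraries of different experiments they correlated at -0.203 to 0.092, the highest for pseudo-islets of experiment 35 with pseudo-beta of experiment 36. For experiments 35 and 36 the pairing thus rests on a small margin. The main fit of the groups was still without the block, because the study's methods state none. Standard errors, intervals and p-values of group differences are from that fit unless the block is named. The median standard error of the 8 genes was 0.26 without the block and 0.18 with it. Lengths and positions come from GENCODE M21 (GRCm38; 13522 genes matched). Scripts were tested on simulated data.

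The 8 genes and all lists were chosen with earlier results of these data known. Named genes are all 8; from each other list, the 5 highest per kb, any called, and the 3 highest and lowest fold changes with a mean of at least 50; rows between *Dlk1* and *Dio3*; the 3 nearest profiles per gene; and overlapping genes. *Rasgrf1* and *Zrsr1*, the neighbours of *Peg3* and *Plagl1*, and *Malat1*, *Neat1*, *Tug1* and *Hells* were named after their values were seen. Alternatives were the block, 2 rescalings, pseudocounts of 0.1 and 10, a minimum of 10 in every library, no variance trend and leaving out libraries or experiments. The block with each rescaling was added after the data had been seen.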

Additional observations from a re-analysis of the deposited data

How the results depend on the processing

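The count of called genes among the 8 was 0 in every setting except the replicate block without replicate 35, where it was 1 (*Meg3*). Among the 38 further imprinted genes it was 0 without the block and 1 with the replicate block, alone, with either rescaling and without replicate 35, 36 or 37; leaving out single libraries gave 0 to 1, with 1 without pseudo-beta replicate 37. The count of imprint-keeping genes was 0 throughout. The count of the 8 genes differing between experiments, 2 in the main test, was 0 without a prior variance trend and 0 to 2 when single libraries were left out (1 without pseudo-islets 35, 0 without pseudo-islets 37 or pseudo-beta 37, and *Meg3* in place of *Nnat* without pseudo-beta 35). Over all genes the same test called 855 in the main setting and 0 without the trend. It called 397, 1353 and 145 without pseudo-islets 35, 36 and 37, and 386, 1152 and 72 without pseudo-beta 35, 36 and 37. Sign changes occurred in 3 of the 8 genes. The log2 fold change of *Nnat* went to -0.044 when scaled without the 10 most abundant genes and -0.058 at equal totals, with and without the block, and to -0.043 with the block without 35; leaving out single libraries gave -0.26 to 0.33, negative without pseudo-islets 35 (-0.26), pseudo-islets 36 (-0.028) and pseudo-beta 37 (-0.25). That of *Peg3* ran from -0.31 to 0.030, positive without pseudo-islets 37. That of *Dlk1* ran from -0.72 to 0.53, positive without pseudo-islets 37 (0.31) and pseudo-beta 35 (0.53), and went to 0.15 and 0.32 with the block without 35 and without 37. The cause was not tested. Pairing by experiment changed no other call of these genes. Over all genes, 8 were called in the main fit (731 at an unadjusted p under 0.05), 73 with the block, 2 under either rescaling or without the trend, 1 and 9 with pseudocounts of 0.1 and 10, 6 with a minimum of 10 in every library, and 0 to 13 when single libraries were left out. With the block they were 87 and 78 under the rescalings and 28, 73 and 45 without experiments 35, 36 and 37. The rescalings put the median of all genes at -0.05 and -0.06, and all 8 genes then had a negative log2 fold change. With 3 libraries a group and standard errors of 0.15 to 0.65 on the log2 scale, small differences were not detectable. In simulated data larger ones were often missed too, with changed genes drawn at random from the whole table. These rates are therefore not those of the 8 genes. A 2-fold change was recovered for 8% of the changed genes without the block and 45% with it. A 4-fold change was recovered for 64.5% and 77.5%. A gene that was not called can therefore still differ between the groups.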
